A study of Mus musculus with 4 samples.

Results

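The genes described here are 48 genes that copy DNA in S phase, from the loading of origins to the supply of nucleotides, together with the cyclins and the transcription factor that open that phase. They were taken by name, and every probe set whose platform symbol was one of these names was used. Of the 48 genes, 47 had at least 1 probe set, out of 18193 genes on the array, and they shared 100 probe sets. Chaf1a, a subunit of the chromatin assembly factor, had no probe set under its own symbol alone and is not analysed here. Expression was measured in endothelial cells made from mouse iPSCs (induced pluripotent stem cells), adult cells that reprogramming returns to a pluripotent, embryo-like state. The samples came from 2 mice with diet-induced obesity (DIO) and 2 healthy control mice, all aged 24 weeks, with 1 array per mouse. The cells were kept in endothelial medium, and the cell type entry of every sample reads iPSC. No label gave a strain, a diet, a genetic change or a treatment other than trypsin at harvest, and none said how many iPSC lines each mouse gave or whether endothelial cells were sorted. Every value is a log2 level per probe set as the authors deposited it, so a difference of 1 is a doubling, and each gene is given by its brightest probe set unless stated.

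Replication starts when the origin recognition complex, with Cdc6 and Cdt1, loads the Mcm2 to Mcm7 helicase ring onto DNA, a step called licensing that geminin (Gmnn) blocks once S phase has begun. The kinases Cdc7 with Dbf4 and cyclin E with its partner then start the helicase with Cdc45 and the GINS complex, and the polymerases follow on the clamp Pcna. Much of this set is under the E2F transcription factors, and its transcripts are abundant in cycling cells such as pluripotent stem cells and scarce in cells that have left the cycle.

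Array quality and cell identity were checked over the whole table. The median over all probe sets was 5.61 in both DIO arrays, and 5.63 and 5.65 in the controls. The 18S ribosomal RNA probe sets averaged 12.30 and 11.96 in DIO, against 12.60 and 12.65 in the controls. The gap between the 3′ and 5′ probe sets of Actb, a measure of RNA integrity, was 0.25 and 0.30 in DIO, against 0.21 and 0.33 in the controls. The 20 endothelial markers averaged 5.89 and 5.80 in DIO, against 5.92 and 6.13 in the controls, under the median of 7.09 for all gene means. Of them Cdh5, the endothelial cadherin, was at 8.48 and 9.34 in DIO, against 8.37 and 8.87 in the controls, and Kdr, the main receptor for vascular endothelial growth factor, at 6.27 and 6.32 in DIO, against 6.33 and 6.83. The 20 pluripotency markers averaged 10.46 and 9.38 in DIO, against 10.07 and 9.19 in the controls. Levels of different probe sets compare only roughly, so these averages do not give a share of endothelial cells. Control 2 stood apart from the other arrays: of 28 epidermal markers measured, 26 were highest there, and they averaged 7.61 and 8.40 in DIO, against 6.79 in control 1 and 10.999 in control 2.

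Most replication genes had a higher mean in the DIO cells, but none passed the test across all genes. Of the 47 genes, 45 had a higher DIO mean, where 53.3% of all genes did, and the median difference was 0.31, beside 0.017 over all genes. The differences ran from −0.24 to 1.21 on the log2 scale. In limma with Benjamini-Hochberg adjustment 0 of the 47 passed, as did 0% of all genes, and the smallest adjusted p was 0.728. At an unadjusted p under 0.05 there were 6 of the 47, all higher in DIO, where 3.26% of all genes were higher and 3.32% lower at that p. Over all genes that split was 4.24% higher and 2.6% lower after quantile normalization, and 5.89% higher and 1.8% lower after centring, with 6 of the 47 higher under each. They were Ccne1, Ccne2, Rrm2, Dut, Rfc3 and Rfc4. The arrays of the groups did not overlap for 19 of the 47, each with both DIO values above both control values, where 21.4% of all genes had that order, and 0 had the opposite one, which 17% of all genes had.

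Control 2 differed most from the other arrays in these genes. It was the lowest of the 4 arrays for 45 of the 47 genes, where it was lowest for 40.9% of all genes, and it was the highest for 0 of them. The exceptions were Pold2, lowest in DIO 2, and Ccne2, lowest in control 1, both noted after their values were seen. The 47 genes averaged 9.93 and 9.83 in DIO 1 and DIO 2, against 9.83 in control 1 and 9.28 in control 2. Control 2 was below control 1 for 46 of the 47 (62.1% of all genes), and DIO 2 below DIO 1 for 31 (51.6% of all genes). The gap between the control arrays had a median of 0.56 over these genes, and that between the DIO arrays 0.18. The control gap was the wider for 45 of the 47, where it was for 65.9% of all genes. For 40 of the 47 the difference between the group means was smaller than the gap between the 2 controls. Set against control 1 alone, the DIO mean was higher for 28 of 47 genes (45.1% of all genes), the median over the 47 was 0.046, and control 1 lay under each DIO array for 19 (33.5% of all genes). Against control 2 alone it was higher for 47 of 47 (61.8% of all genes) with a median of 0.57. The 2 comparisons share the DIO arrays. Whether control 2 held fewer dividing cells or less of these transcripts per cell cannot be told apart in bulk RNA, and the part played by its epidermal genes in the result was not tested.

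**Figure D1:**
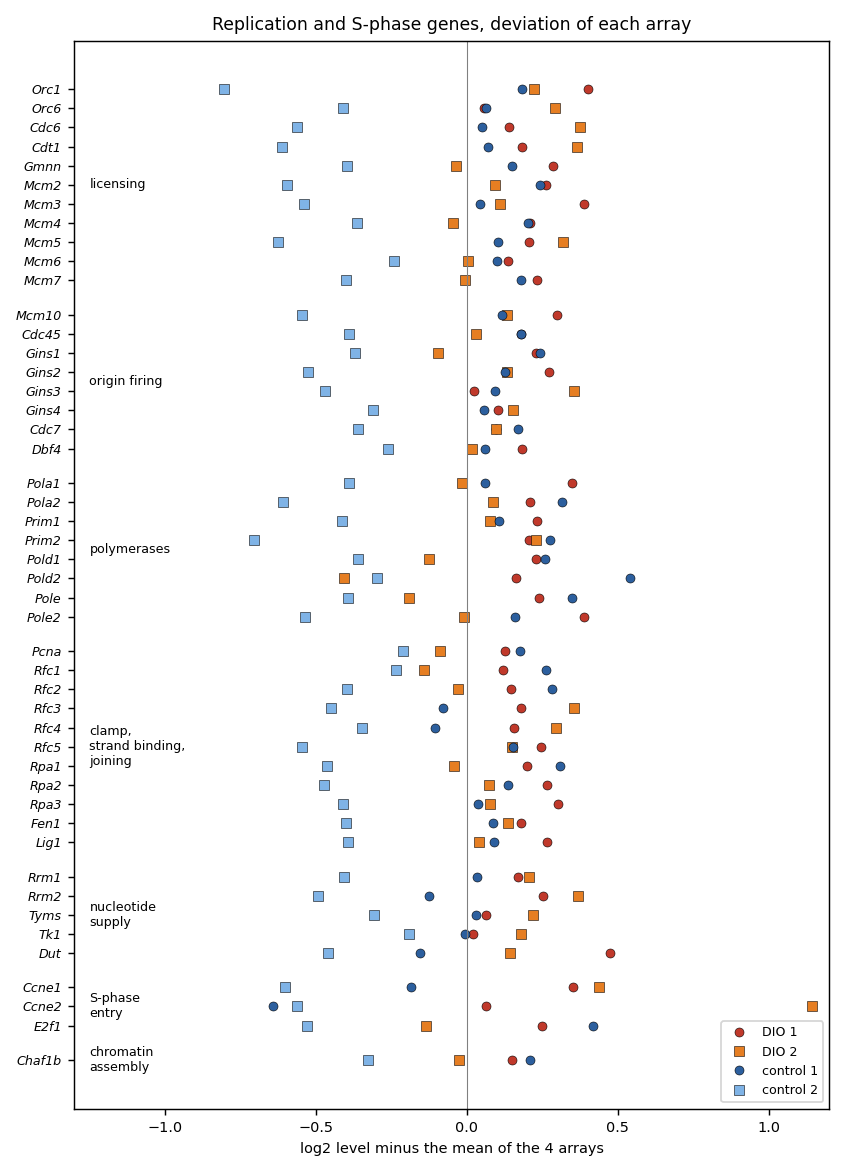
Deviation of each array from the mean of the 4 arrays, in log2 units on the horizontal axis, for the 47 genes grouped by role. Red circles and orange squares are DIO 1 and DIO 2, and dark and light blue are control 1 and control 2. Control 2 lies farthest to the left for 45 of the 47 genes, and the other 3 arrays overlap for most.

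The promoters are shown here because these genes are a textbook E2F set. A larger share with E2F sites than over all genes therefore says nothing about the DIO difference. RefSeq windows on GRCm38.p6, from 250 bases before to 50 after the start of transcription, were found for 39 of the 48 genes. Those without a window were Gins1, Gins2, Gins4, Prim2, Rfc2, Ccne2, Gmnn, Mcm4 and Pole. They were searched on both strands for the E2F site written as TTTCCCGC, TTTGGCGC, TTTCGCGC or TTTGCCGC, and for the CCAAT box. An E2F site was found for 13 of the 39 genes (33.3%), against 2.6% of the 27025 genes in the table. A CCAAT box was found for 22 (56.4%), against 41.1% of all. By role, 7 of 9 licensing genes held an E2F site and 0 of 5 nucleotide supply genes did. The E2F matches of 2 windows overlapped one another, and an E2F match overlapped a CCAAT match in 1. The 160 bases before the start are printed below for 5 genes with an E2F match and for 3 without one, chosen among those the results turn on. E2F and CCAAT matches are in capitals, and each sequence reads 5′ to 3′ on the gene's strand.
Orc1, chr4:108579294-108579453, plus strand: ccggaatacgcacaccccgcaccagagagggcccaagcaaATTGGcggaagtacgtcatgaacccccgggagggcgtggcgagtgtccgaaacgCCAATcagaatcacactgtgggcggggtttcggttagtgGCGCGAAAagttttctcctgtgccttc
Cdc6, chr11:98907991-98908150, plus strand: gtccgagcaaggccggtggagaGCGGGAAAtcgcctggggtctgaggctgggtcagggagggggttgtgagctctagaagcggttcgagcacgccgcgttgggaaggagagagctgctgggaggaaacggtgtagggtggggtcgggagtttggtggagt
Mcm5, chr8:75109349-75109508, plus strand: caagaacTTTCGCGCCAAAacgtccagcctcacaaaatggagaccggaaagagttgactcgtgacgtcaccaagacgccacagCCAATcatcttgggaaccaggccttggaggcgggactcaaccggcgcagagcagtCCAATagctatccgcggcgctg
Mcm6, chr1:128359706-128359865, minus strand: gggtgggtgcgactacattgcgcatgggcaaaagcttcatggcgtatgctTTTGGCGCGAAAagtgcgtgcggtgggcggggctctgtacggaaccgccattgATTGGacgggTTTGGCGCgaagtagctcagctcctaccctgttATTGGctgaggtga
Rfc3, chr5:151651209-151651368, minus strand: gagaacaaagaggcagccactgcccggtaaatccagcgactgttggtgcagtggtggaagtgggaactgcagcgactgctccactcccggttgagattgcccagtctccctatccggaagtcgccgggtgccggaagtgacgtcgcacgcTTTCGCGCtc
Rrm2, chr12:24708094-24708253, plus strand: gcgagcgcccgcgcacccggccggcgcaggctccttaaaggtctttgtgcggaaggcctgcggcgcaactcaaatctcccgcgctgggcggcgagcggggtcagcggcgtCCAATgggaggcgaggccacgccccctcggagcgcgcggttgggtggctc
Dut, chr2:125247355-125247514, plus strand: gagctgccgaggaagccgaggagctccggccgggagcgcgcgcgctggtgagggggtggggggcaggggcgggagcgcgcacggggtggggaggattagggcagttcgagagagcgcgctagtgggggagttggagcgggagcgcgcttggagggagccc
Ccne1, chr7:38107491-38107650, minus strand: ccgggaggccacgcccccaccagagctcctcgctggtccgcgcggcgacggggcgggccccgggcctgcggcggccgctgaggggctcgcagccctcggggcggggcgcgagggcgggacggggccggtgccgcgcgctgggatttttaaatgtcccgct
Within the printed stretches, the E2F letters of Orc1 lie near the start and 2 CCAAT boxes farther from it. Mcm5 holds 2 overlapping E2F matches and 2 CCAAT boxes, and Mcm6 holds 3 E2F matches, of which 2 overlap, and 2 CCAAT boxes. Rrm2 shows a CCAAT box alone, while the stretches of Dut and Ccne1 hold none of these letters. The median difference between DIO and control was 0.38 for the 13 genes with an E2F match and 0.31 for the 25 measured genes without one. Against control 1 alone these medians were 0.11 and 0.045. A match describes the letters only, and no binding was measured.

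The licensing genes all had higher DIO means, 11 of 11, with a median difference of 0.35. The groups did not overlap for 5 of them, Orc1, Cdc6, Cdt1, Mcm3 and Mcm5, and 0 passed. In each of the 5 the DIO values were the higher, an order that 21.4% of all genes had. Orc1, the largest subunit of the origin recognition complex, was at 8.59 and 8.42 in DIO, against 8.38 and 7.39 in control 1 and control 2. Control 2 lay about a log2 unit under the other 3 arrays, and the difference of 0.62 ± 0.37 (SE) was narrower than the gap between the controls (limma, adjusted p = 0.764). Cdt1, which brings the helicase to the origin, was at 12.08 and 12.27 in DIO, against 11.97 and 11.29 in the controls, a difference of 0.55 ± 0.27. Cdc6, the ATPase that works beside it, differed by 0.51 ± 0.26, and Orc6 by 0.35 ± 0.22. Gmnn, the inhibitor of Cdt1, differed by 0.25 ± 0.25, and by −0.026 from control 1 alone.

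The 6 subunits of the helicase ring did not stand in 1 order across the arrays. Mcm5 was at 11.67 and 11.78 in DIO, against 11.56 and 10.83 in the controls, a difference of 0.52 ± 0.28 with a 95% interval from −0.25 to 1.30. Mcm3 differed by 0.50 ± 0.25, and these were the 2 subunits whose brightest probe set had both DIO arrays above both controls. A dimmer probe set of each of the other subunits had that order too. These gave 0.49 ± 0.32 for Mcm2, 1.05 ± 0.14 for Mcm4, 0.59 ± 0.11 for Mcm6 and 0.46 ± 0.19 for Mcm7. The dimmer probe sets of Mcm5 did not have it, nor did those of Mcm3 except the dimmest. Mcm7 was at 12.45 and 12.21 in DIO, against 12.39 and 11.81 in the controls, so that control 1 lay between the DIO arrays (0.22 ± 0.25). Mcm6 was at 11.20 and 11.07 in DIO, against 11.16 and 10.82 in the controls, the smallest difference of the licensing genes at 0.14 ± 0.17. Mcm2 differed by 0.35 ± 0.32 and Mcm4 by 0.16 ± 0.25. Against control 1 alone the difference was −0.064 for Mcm2, −0.12 for Mcm4, −0.031 for Mcm6 and −0.067 for Mcm7.

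Of the origin firing genes, 8 of 8 were higher on average in DIO, by a median of 0.23 against both controls and 0.055 against control 1 alone. Mcm10, which joins the helicase to the primase, was at 9.47 and 9.30 in DIO, against 9.29 and 8.63 in the controls, and differed by 0.43 ± 0.27 (limma, adjusted p = 0.770). DIO 2 and control 1 were nearly level. Of the GINS complex, which completes the active helicase, Gins2 was at 9.36 and 9.22 in DIO, against 9.22 and 8.56 in the controls, a difference of 0.40 ± 0.26. Gins1 was at 9.40 and 9.08 in DIO, against 9.42 and 8.80 in the controls, and its 0.13 ± 0.27 turned to −0.18 without control 2 and −0.032 without DIO 1. Gins3 and Gins4 differed by 0.38 ± 0.26 and 0.25 ± 0.18. Cdc45, which travels with the helicase, differed by 0.21 ± 0.24. The kinase Cdc7 and its activator Dbf4 differed by 0.19 ± 0.22 and 0.20 ± 0.17.

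The polymerase genes had the lowest median of the roles with more than 1 gene when set against control 1. Of 8 genes, 7 had a higher DIO mean, and the median was 0.30, but it was −0.11 without control 2. By the brightest probe set the groups overlapped for all 8, where 21.4% of all genes had both DIO values on top and 17% had both below. A dimmer probe set of Pola1, Prim1 and Prim2 each had both DIO arrays above both controls. That of Pole2 had both below, and the rest overlapped. Prim2, the large primase subunit, was at 9.43 and 9.45 in DIO, against 9.50 and 8.52 in the controls. Its difference of 0.43 ± 0.36 became −0.056 without control 2. The second Prim2 probe set was at 8.70 and 8.85 in DIO, against 8.34 and 7.53 in the controls (0.84 ± 0.30). The third, dimmer one gave −0.12. Pole2, a subunit of the leading-strand polymerase epsilon, was at 9.17 and 8.77 in DIO, against 8.94 and 8.24 in the controls (0.38 ± 0.30). It was 0.033 without control 2 and 0.030 with probe sets averaged, and its other, dimmer probe set gave −0.32. Pole, the catalytic subunit of that enzyme, was at 8.47 and 8.04 in DIO, against 8.58 and 7.84 in the controls, a difference of 0.047 ± 0.32 with an interval from −0.83 to 0.93. Pola1 and Pola2 of polymerase alpha differed by 0.33 ± 0.23 and 0.29 ± 0.35, the small primase subunit Prim1 by 0.31 ± 0.22 and Pold1, the catalytic subunit of the lagging-strand polymerase delta, by 0.10 ± 0.27. Pold2, its accessory subunit, named after its values were seen, was at 9.50 and 8.93 in DIO, against 9.88 and 9.04 in the controls. Its difference of −0.24 ± 0.37 was the lowest of the 47 genes, and the 2 groups overlapped.

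Among the clamp, its loader, the single-strand binding proteins and the enzymes that join Okazaki fragments, 10 of 11 genes were higher on average in DIO, and the median of 0.31 was 0.045 without control 2. Pcna, the sliding clamp, was at 12.63 and 12.42 in DIO, against 12.68 and 12.30 in the controls, so each DIO array lay between the controls. Its difference was 0.036 ± 0.19, with an interval from −0.49 to 0.57, and became −0.16 without control 2 and −0.071 without DIO 1. The 5 subunits of the clamp loader differed in how they were ordered. Rfc3 was at 8.57 and 8.75 in DIO, against 8.31 and 7.94 in the controls, and Rfc4 at 9.79 and 9.92 in DIO, against 9.52 and 9.28. Both had the DIO arrays above each control, with differences of 0.53 ± 0.19 and 0.45 ± 0.15 (limma, adjusted p = 0.728 for each, unadjusted p = 0.0437 and 0.0402). Their second probe sets gave 0.22 ± 0.22 for Rfc3 and 0.18 ± 0.24 for Rfc4. In both of these, control 1 lay above both DIO arrays. Rfc1, the large subunit, was at 9.55 and 9.29 in DIO, against 9.69 and 9.20 in the controls. Its −0.025 ± 0.23 turned to 0.22 without control 1, 0.11 without DIO 2, 0.038 after quantile normalization and 0.067 after centring. Rfc2 and Rfc5 differed by 0.12 ± 0.27 and 0.39 ± 0.27. The 3 subunits of replication protein A, Rpa1, Rpa2 and Rpa3, differed by 0.15 ± 0.31, 0.34 ± 0.25 and 0.38 ± 0.21. Fen1, the flap nuclease, and Lig1, the ligase, differed by 0.31 ± 0.21 and 0.30 ± 0.22.

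Nucleotide supply was the role in which all measured genes, 5 of 5, had both DIO arrays above both controls (21.4% of all genes). The median difference was 0.37, and 0.15 against control 1 alone. Rrm2, the limiting subunit of ribonucleotide reductase, was at 11.63 and 11.74 in DIO, against 11.25 and 10.88 in the controls. The difference of 0.62 ± 0.18, a ratio of 1.54, was wider than the gap within either group but did not pass (limma, adjusted p = 0.728, unadjusted p = 0.0241). Dut, which removes dUTP so that uracil is kept out of DNA, was at 11.43 and 11.10 in DIO, against 10.80 and 10.50 in the controls (0.62 ± 0.20, unadjusted p = 0.0331 in limma). Tk1, the thymidine kinase of S phase, was at 9.20 and 9.36 in DIO, against 9.18 and 8.99 in the controls, and differed by 0.20 ± 0.15. DIO 1 and control 1 were nearly level for Tk1. Rrm1, the large subunit of the reductase, differed by 0.37 ± 0.19. Tyms, the thymidylate synthase, differed by 0.28 ± 0.18, but its brightest single-gene probe set stood at 5.38 to 5.91, near the median of 5.63 for all probe sets, and 1 further probe set that named Tyms along with other genes was not used.

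The cyclins of S-phase entry had the largest differences. Ccne2, cyclin E2, was at 7.87 and 8.95 in DIO, against 7.17 and 7.25 in the controls. DIO 2 lay over a log2 unit above DIO 1, and both lay above the controls, which were nearly level. The difference was 1.21 ± 0.39, a ratio of 2.31 with an interval from 0.13 to 2.28 on the log2 scale, and it was 0.67 without DIO 2 and 1.74 without DIO 1 (limma, adjusted p = 0.728 on all arrays). Ccne1, cyclin E1, was at 10.41 and 10.49 in DIO, against 9.87 and 9.45 in the controls, a difference of 0.79 ± 0.19 and a ratio of 1.73 (unadjusted p = 0.0131 in limma). It was 0.58 without control 2 and 0.999 without control 1. E2f1, the activating transcription factor of the set, did not share this order. It was at 8.24 and 7.85 in DIO, against 8.40 and 7.46 in the controls, and its 0.11 ± 0.37 turned to −0.36 without control 2 and −0.078 without DIO 1. Chaf1b, which places histones behind the fork, was at 8.76 and 8.59 in DIO, against 8.82 and 8.29 in the controls (0.12 ± 0.23, and −0.15 without control 2).

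The difference between group means was wider than the gap within either group for 7 of the 47 genes, where it was for 26.3% of all genes. The 7 were Ccne1, Ccne2, Rrm2, Dut, Tk1, Rfc3 and Rfc4, noted after their values were seen. Without control 2 the difference was 0.13 for Orc1, 0.20 for Cdt1, 0.16 for Mcm5, 0.099 for Mcm10, 0.076 for Gins2 and 0.11 for Tk1. In fits that left out 1 control the spread came from the DIO arrays alone, and the lone control was assumed to vary as they did. Without control 2, Ccne1 and Rrm2 were higher at an unadjusted p under 0.05 (limma, adjusted p = 0.387 and 0.393), where 5.19% of all genes were. Without control 1 there were 32 such members, Orc1 among them at 1.12 ± 0.16 (adjusted p = 0.0600), where 9.79% of all genes were higher at that p.

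**Figure D2:**
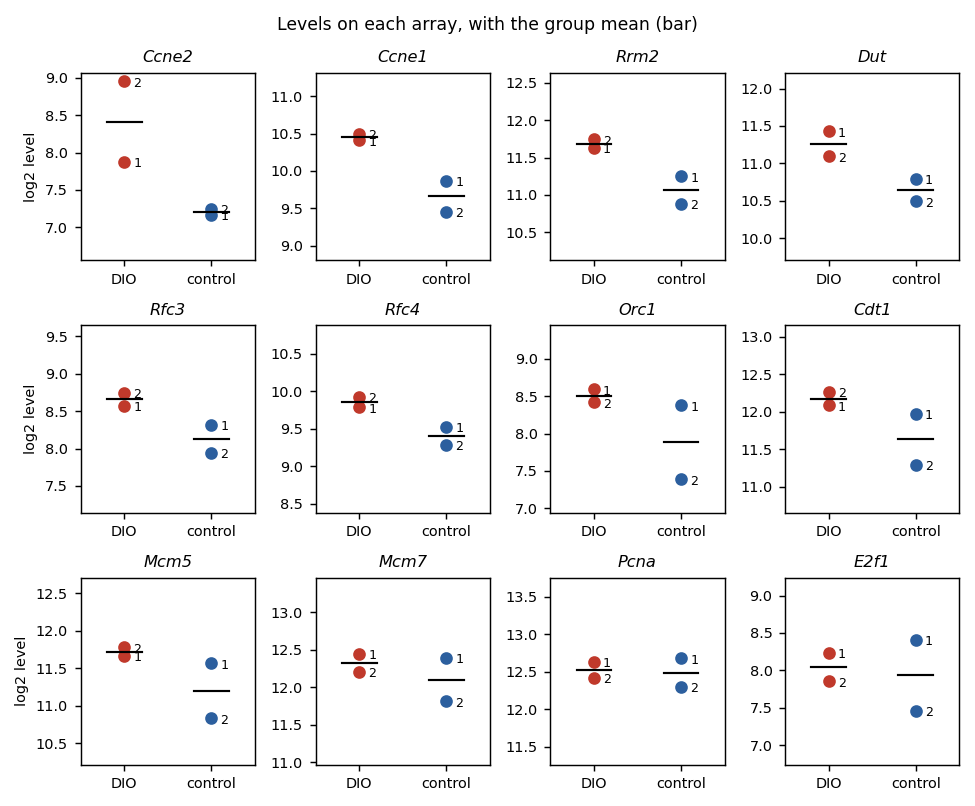
Log2 level on the vertical axis for 12 of the genes, with DIO arrays in red to the left, control arrays in blue to the right, the mouse number beside each point and a bar at the group mean of n = 2. Each panel spans the same range of log2 units. The DIO points lie above both controls for Ccne2, Ccne1, Rrm2, Dut, Rfc3, Rfc4, Orc1, Cdt1 and Mcm5. Control 1 lies between the DIO points for Mcm7 and above both for Pcna and E2f1.

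**Figure D3:**
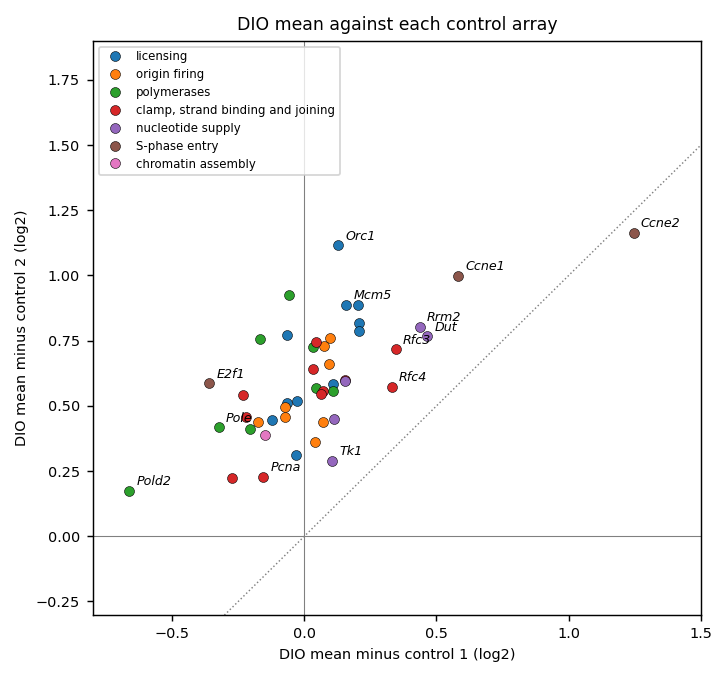
DIO mean minus control 1 on the horizontal axis and DIO mean minus control 2 on the vertical axis, in log2 units, for the 47 genes coloured by role. All 47 lie above 0 on the vertical axis and 28 lie right of 0 on the horizontal one, and only Ccne2 lies below the dotted line of equal differences.

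Every probe set of a gene was also counted, on the same 4 arrays and with the brightest sets included. Of the 100 probe sets, 80 lay above the median level of all probe sets. Of those 77 had a higher DIO mean (52.4% of all probe sets), 33 had both DIO arrays above both controls (22.3%) and 75 had control 2 lowest (36.2%). These shares cover probe sets of every level, and no share was computed for bright or dim probe sets apart. Among genes, leaving out the dimmest lowered the share with a higher DIO mean from 53.3% to 46.7%. The share with both DIO values above both control values fell from 21.4% to 15.5%. Of the 20 dimmer member probe sets, 9 had a higher DIO mean, and their median difference was −0.0094. Of 35 genes with several probe sets, 13 had probe sets of opposite sign: Cdt1, Mcm5, Mcm6, Mcm10, Gins1, Cdc7, Dbf4, Pola2, Prim2, Pole2, Rfc1, Rrm1 and Tyms. In all but Cdc7 and Rfc1 the opposite sign came from a probe set below that median. Tested probe set by probe set over the whole array, 0 passed in limma, and 13 of the 100 had an unadjusted p under 0.05 and a higher DIO mean, where 4.12% of all probe sets did.

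Of the 100 probe sets, 47 were the brightest of their gene. Among the others, 16 had both DIO values above both control values, where 22.3% of all probe sets had that order. The 5 of them with the smallest gap between the controls, at most 0.16, are given here, a choice made after their values were seen. The widest control gap among the 16 was 0.90. The order and the small control gap of the 5 were thus set by the choice, and a small gap also lowers the SE. The second Mcm4 probe set was at 10.04 and 10.28 in DIO, against 9.07 and 9.15 in the controls, a difference of 1.05 ± 0.14, where the brightest gave 0.16. The second Mcm6 probe set was at 10.08 and 10.01 in DIO, against 9.46 and 9.45 in the controls (0.59 ± 0.11), where the brightest gave 0.14. Both carry the manufacturer's ending for probes that can match other transcripts. The second Rrm2 probe set, without that ending, was at 11.03 and 11.17 in DIO, against 10.25 and 10.12 in the controls (0.92 ± 0.13), while the third gave 0.31 ± 0.25. The second Orc1 probe set was at 6.58 and 6.51 in DIO, against 6.004 and 6.16 in the controls (0.46 ± 0.13). The dimmest Mcm3 probe set, below the median level of all probe sets, was at 5.01 and 5.25 in DIO, against 4.76 and 4.71 in the controls (0.39 ± 0.14). Over all Mcm3 probe sets the difference ranged from 0.0020 to 0.50. None of the 5 chosen probe sets passed (limma over all probe sets, adjusted p = 0.531 for 4 of them and 0.536 for that of Mcm3). Both Ccne1 probe sets had the DIO arrays above both controls, at 0.79 ± 0.18 and 0.61 ± 0.29. All 3 E2f1 probe sets were near 0, from 0.084 to 0.11.

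**Figure D4:**
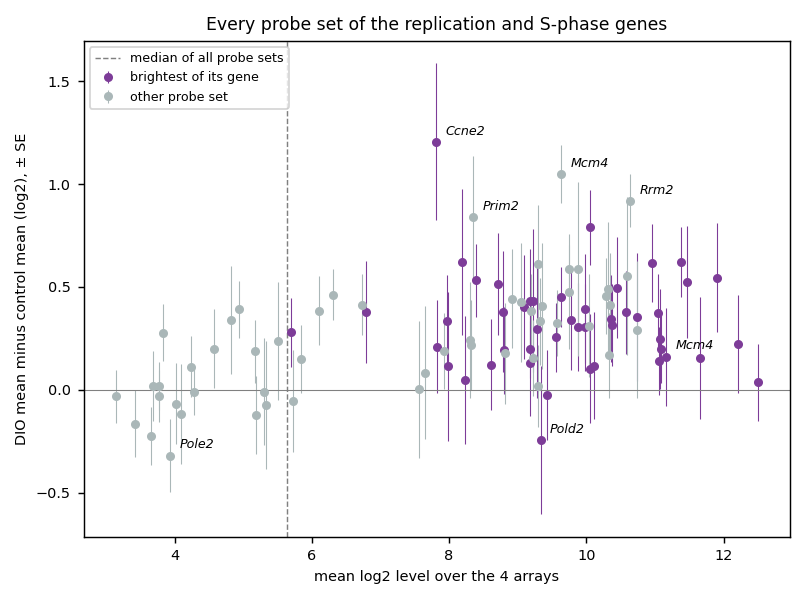
Mean log2 level over the 4 arrays on the horizontal axis and DIO mean minus control mean on the vertical axis, with bars of 1 SE from limma, for the 100 probe sets. Purple points are the brightest probe set of a gene, and the dashed line marks the median level of all probe sets. Points left of that line scatter around 0, while 77 of the 80 to its right lie above 0, with Pold2 the lowest of the purple points.

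Other genes of the same pathways, taken from lists, gave 0 genes past the test in either direction. Of 40 further replication factors, 31 were higher on average in DIO, and their median was 0.16, or −0.087 against control 1 alone. Hells, a chromatin remodeller needed for DNA methylation, was at 10.39 and 10.27 in DIO, against 9.46 and 9.05 in the controls (1.07 ± 0.19). Topbp1, which activates the checkpoint kinase Atr and helps to fire origins, was at 10.69 and 10.89 in DIO, against 10.25 and 10.24 in the controls (0.54 ± 0.14). Of 23 further genes of nucleotide synthesis, 18 were higher on average in DIO, and their median was 0.13. Dck, the salvage kinase for deoxycytidine, was at 9.15 and 9.32 in DIO, against 8.67 and 8.67 in the controls (0.57 ± 0.13), and Dtymk, the thymidylate kinase, differed by 0.51 ± 0.24. None of these 4 passed (limma, adjusted p = 0.728 for Hells, Topbp1 and Dck, and 0.735 for Dtymk).

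The control genes of the G1/S step had a median of 0.10, with 21 of 32 higher. Skp2, which targets the cyclin-dependent kinase inhibitor p27 for destruction, differed by 0.44 ± 0.14. E2f8, a repressor of E2F target genes, was at 9.32 and 9.94 in DIO, against 10.28 and 10.42 in the controls, so both DIO arrays lay below both controls (−0.72 ± 0.25; limma, adjusted p = 0.728, unadjusted p = 0.0427). S-phase checkpoint genes had a median of 0.033, with 9 of 15 higher, Fanca of the Fanconi anaemia pathway at 0.71 ± 0.24 and Mdc1 at 0.28 ± 0.17. Mitotic genes had 19 of 19 higher, with a median of 0.36 and 0.063 against control 1 alone. Mki67, the proliferation antigen, was at 10.33 and 10.38 in DIO, against 9.94 and 9.95 in the controls (0.41 ± 0.12), and Cdc20 differed by 0.50 ± 0.15. The controls were level for Mki67, while control 2 minus control 1 had a median of −0.54 over the mitotic genes, beside −0.56 over the replication genes.

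**Figure D5:**
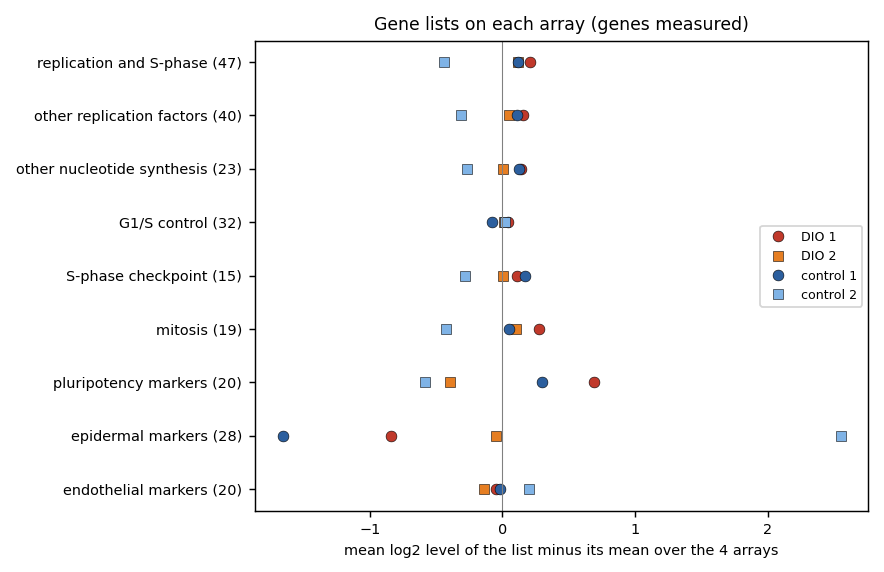
Mean log2 level of each gene list minus its mean over the 4 arrays, on the horizontal axis, with the number of genes measured in brackets. Red and orange are DIO 1 and DIO 2, dark and light blue control 1 and control 2. Control 2 is the lowest array for the replication and S-phase genes, at −0.44, as it is for the mitotic genes, at −0.43, and the pluripotency markers, at −0.59, and it is the highest for the epidermal markers, at 2.55.

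Marker levels differed between the arrays too, and their part in the replication result was not tested. Epidermal markers had a median of −0.98, with 26 of 28 lower in DIO, Krt16 at −2.73 ± 1.10 and Krt14 at −1.41 ± 0.81. Against control 1 alone the epidermal median was 1.14, with 22 of 28 higher in DIO (45.1% of all genes). Krt16 and Krt14 differed from control 1 by −1.19 and −0.26. Pluripotency markers had a median of 0.34, with 17 of 20 higher in DIO (53.3% of all genes), Lin28a at 0.76 ± 0.29 and Tdgf1 at 0.79 ± 0.55. Against control 1 alone their median was −0.17, with 6 of 20 higher (45.1% of all genes). Lin28a and Tdgf1 were among the higher ones, at 0.38 and 0.42. In control 2, 19 of the 20 pluripotency markers were lower than in control 1. DIO 2 was also lower than DIO 1 for 19 of those 20, by a median of −1.15, whereas the replication genes differed between the DIO arrays by a median of −0.16. Endothelial markers had a median of −0.073, with 9 of 20 higher in DIO, Flt1 at −0.50 ± 0.16 and Tek at −1.33 ± 0.62. Simple epithelial markers had a median of 0.025, with 9 of 14 higher (Krt19 at −0.43 ± 0.15, Cldn6 at 0.50 ± 0.18). Mesenchymal markers had a median of −0.20, with 6 of 14 higher and 8 lower, though both with the smallest p were higher (Tagln at 0.94 ± 0.27, Pdgfrb at 0.86 ± 0.32). Haematopoietic markers had a median of 0.052, with 7 of 14 higher (Csf1r at −0.49 ± 0.14, Hba-a1 at 0.38 ± 0.19). Endoderm markers had a median of −0.075, with 6 of 12 higher (Amn at 0.55 ± 0.25, Foxa2 at −1.14 ± 0.59) and trophoblast markers 0.565, with 8 of 10 higher (Tfap2c at 0.70 ± 0.23, Plac1 at 0.72 ± 0.31). In these 8 lists 0 genes passed in limma, and 6 had an unadjusted p under 0.05, in either direction. Of all genes, 3.26% were higher and 3.32% lower at that p.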

How the data were processed

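The values used were log2 expression levels per probe set on an Affymetrix mouse array, in a table deposited by the authors. How they corrected, normalized and summarised the probes is not given in the sources used here; that the scale is log2 was read from the values, 2.59 to 14.56. Biotin-labelled RNA was made with a 3′ IVT kit, per the labels' protocols. Groups and mouse numbers came from the sample titles.

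Of 45101 probe sets, 64 manufacturer controls were left out of the tests, 34945 had 1 gene symbol, 932 several and 9160 none in the platform annotation. Each of 18193 genes was given by its brightest probe set over the 4 arrays, with no filter on dim ones. All 47 measured members matched a RefSeq gene number and 0 changed symbol. A linear model with moderated variances (limma 3.58.1, R 4.3.3) tested DIO against control, with Benjamini-Hochberg adjustment over all genes at a threshold of 0.05, and the fit was tested on simulated data. Differences are DIO mean minus control mean. Errors are SE of the fit, n = 2 per group, so precision is limited by the number of arrays: the 95% interval of a gene's difference had a median half-width of 0.46. An exact 2-sided permutation of 2 against 2 cannot give a p under 0.333. Each array came from a different mouse, but nothing says how many derivations each mouse gave. The p-values weigh the group difference against the spread between these arrays. That spread may mix differences between mice, between derivations and of technical handling.

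The members and 13 further lists were chosen with earlier results of these data known. Members are described by counts and medians beside all genes, with no test over the list. Levels on each array are printed for the 2 largest and the smallest difference of each role, all S-phase entry genes, and Mcm5, Mcm7, Pcna, Rrm2 and E2f1; of other lists the 2 genes with the smallest p are named. Alternatives tried were centring of arrays on their medians, quantile normalization, dropping the 40% of genes with the lowest levels, averaging or separately testing probe sets, a trended and robust eBayes, array weights, the mouse number as a block and leaving out each array. A choice of probe sets without the endings for possible cross-matching was added after seeing the data.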

Additional observations from a re-analysis of the deposited data

How the results depend on the processing

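No replication gene passed under any of the 13 alternatives run (limma), with 6 at an unadjusted p under 0.05 in the comparison of all 4 arrays and 1 to 32 when an array was left out, where 171 to 3689 of all 18193 genes were, both highest without control 1. A group left with 1 array was assumed to vary like the other group. Over all genes, 0 passed except without control 1, where 483 did (range 0 to 483 over the arrays left out). At an unadjusted p under 0.05 the genes higher and lower in DIO numbered 594 and 604, and 1072 and 327 after centring. The count of replication genes with a higher DIO mean was 28 to 47 when an array was left out, the lowest without control 2 (45.1% of all genes), and 86 of 100 when each probe set was counted. The count with both DIO arrays above both controls was 30 after quantile normalization (24.1% of all genes), 27 after centring (33.6%), 35 of 100 by probe set (22.3%), and 19 to 46 when an array was left out, the highest without control 1 (50.1%). Left-out arrays moved the median over all members between 0.046 and 0.57, licensing between 0.11 and 0.77, polymerases between −0.11 and 0.56, the clamp group between 0.045 and 0.56 and nucleotide supply between 0.15 and 0.59, each lowest without control 2 and highest without control 1. Averaging probe sets gave 0.20 for nucleotide supply, and separate probe sets gave 0.36 for S-phase entry. Signs turned when an array was left out for 19 of the 47 members, 17 of them without control 2. Of the members with levels printed by rule they turned for Mcm6 (−0.031 to 0.31), Gins1 (−0.18 to 0.44), Prim2 (−0.056 to 0.92), Pole (−0.32 to 0.42), Rfc1 (−0.27 to 0.22), E2f1 (−0.36 to 0.59), Chaf1b (−0.15 to 0.39), Mcm7 (−0.067 to 0.51) and Pcna (−0.16 to 0.23). Rfc1 also turned to 0.038 with quantile normalization, 0.067 after centring and 0.050 with averaged probe sets. The cause of these changes was not tested. With the mouse number as a replicate block, 0 genes passed. At an unadjusted p under 0.05 in that fit 5 members were higher in DIO, where 2.56% of all genes were higher and 2.84% lower. The labels do not say that the numbers pair mice, and across genes the difference between DIO 1 and DIO 2 correlated with that between control 1 and control 2 at 0.33. No detection calls were used, so how far dim probe sets lie above background is unknown.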
